A study of Rattus norvegicus with 22 samples.

Results

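The genes described here encode proteins that bind, take up and activate fatty acids. They were chosen by name: an array probe belonged when it was no control and its gene name, ignoring case, was Fabp1, Fabp2, Fabp4, Fabp5, Cd36, Slc27a2, Slc27a4, Acsl1, Acsl3 or Acsl5. This choice, and that of the gene lists below, was made with earlier results of these data known. Their counts and medians set beside those of all probes are therefore descriptions. All 10 genes were on the array, out of 26276 gene names, with 11 of its 30367 probes. Cd36 had 2 probes and each of the other 9 genes had 1. All 11 probes passed the filter on low signal and were among the 19434 probes tested.

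Long-chain fatty acids reach liver cells bound to albumin or as products of lipoprotein breakdown. The membrane protein CD36 and the transport proteins of the Slc27 family take part in their uptake, the small fatty acid binding proteins of the Fabp family carry them within the cell, and the acyl-CoA synthetases of the Acsl family join them to coenzyme A, which commits them to oxidation or to storage as lipid. In rat liver Fabp1 is the dominant binding protein, Slc27a2 and Acsl1 are major hepatocyte enzymes, and several of these genes are known targets of the nuclear receptor PPARalpha, which binds fatty acids.

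The study fed male Sprague-Dawley rats, 8 weeks old at the start, for 3 or 14 months. The semi-synthetic control diet (CD) was compared with the BASE-diet (BD), in which 6% salmon fat replaced lard and which held 8% linden extract, 8% pumpkin puree and probiotic bacteria. Liver RNA of each rat was put on 1 Agilent two-colour array against a common reference, pooled liver RNA of healthy rats aged 10 weeks. The labels give the rat as Cy5 and the reference as Cy3 on every array, although the methods name Cy3 for control rats and Cy5 for BASE-diet rats, and the labels were followed. The groups were CD 3 and BD 3, with 5 rats each after 3 months, and CD 14 and BD 14, with 6 rats each after 14 months. Age moves with months of feeding in this design, so the 2 cannot be told apart.

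Values are log2 ratios of the rat's Cy5 signal to the reference's Cy3 signal, so that 0 means equal signal in both. Array by array, the spots that stood well above background in Cy5, counted in place of depth, had a median share of 66.4% in CD 3 (52.4 to 93.6%), 70.2% in BD 3 (67.5 to 92.4%), 69.0% in CD 14 (67.3 to 90.6%) and 71.0% in BD 14 (69.1 to 74.3%). The number of arrays limits the precision. The file headers place the arrays on 5 slides, called A to E here. Slide A held BD 3 rats 3, 4 and 5 with CD 14 rats 1, 2 and 3, slide B held CD 3 rat 1 with BD 3 rats 1 and 2, slide C held CD 14 rats 4 and 5 with all 6 BD 14 rats, slide D held CD 3 rats 2, 3 and 4, and slide E held CD 3 rat 5 with CD 14 rat 6. A difference within 1 slide could therefore be had for BD 3 against CD 3 (slide B, 2 rats against 1), BD 14 against CD 14 (slide C, 6 against 2) and CD 14 against CD 3 (slide E, 1 against 1), and on no slide for BD 14 against BD 3. A fit with slide as a block compares groups through the slides they share. There CD 3 rats 2, 3 and 4, alone on slide D, add nothing to a difference, and CD 3 rests on rats 1 and 5. For BD 14 against CD 14 that fit gives the difference within slide C, 6 rats against CD 14 rats 4 and 5.

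The members' values bear the label of liver. All 10 listed hepatocyte markers were well above background on all 22 arrays, and the probe with the highest signal among them, that of Ttr, had Cy5 signals of 107028 to 343375. Among the members, Fabp1, Slc27a2 and Acsl1 had medians of 147586, 70366.8 and 98893.5 over the arrays. No spot of the members was saturated in either channel. Every member's probe was well above background in Cy5 on all 22 arrays except that of Fabp4, which was so on 19, with 2 of 5 in CD 3 and every array of the other groups. In Cy3, the other channel of each ratio, all were so on 22 arrays except Fabp4, on 19, and Slc27a4, on 21. Signals of different probes do not compare the levels of their genes.

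The diet comparisons ask how the BASE-diet liver differs from the control liver after each time, and the time comparisons ask how the liver on 1 diet differs between 3 and 14 months. With limma, at an adjusted p under 0.05, none of the 10 genes was called in BD 3 against CD 3 (0 of 10, beside 0.00% of all probes tested), BD 14 against CD 14 (0 of 10, 0.00%), CD 14 against CD 3 (0 of 10, 0.00%), BD 14 against BD 3 (0 of 10, 0.00%), the interaction of diet and months (0 of 10, 0.00%) or the F test of the 4 groups (0 of 10, 0.0257%). At an unadjusted p under 0.05 limma gave 1 gene in BD 3 against CD 3, Fabp1 (7.11% of all probes), 0 in BD 14 against CD 14 (4.60%), 4 in CD 14 against CD 3 (10.1%), 3 in BD 14 against BD 3 (7.44%), 0 in the interaction (4.80%) and 5 in the F test (10.5%). The F test that the methods name, with their Benjamini-Hochberg adjustment, gave 0 of 10 genes and 1 of all probes (0.00515%). Without that adjustment it gave 4 genes among the 4 groups (2083 of 19434 probes), and followed by Tukey's test 2 genes in CD 14 against CD 3, Fabp1 and Cd36 (3.11%), and 0 in BD 3 against CD 3 (2.08%), BD 14 against CD 14 (0.952%) and BD 14 against BD 3 (2.16%). In no comparison did a gene's groups lie apart without overlap, which 0.756% of all probes did in BD 3 against CD 3, 0.767% in BD 14 against CD 14, 0.515% for CD 14 against CD 3 and 2.26% for BD 14 against BD 3.

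The 4 comparisons share groups, so their values are given side by side and not as support for each other. In CD 14 against CD 3, 8 of 10 genes were higher at any p (53.4% of all probes) and the median log2 difference was 0.91, beside 0.03 over all probes. In BD 14 against BD 3, 9 of 10 were higher (58.6%) and the median was 0.65, beside 0.07. The diet medians were 0.23 beside 0.03 at 3 months, with 8 of 10 higher (53.6%), and 0.10 beside 0.05 at 14 months, with 7 of 10 higher (56.3%), but with slide as a block they turned to -0.03 beside 0.15, with 5 of 10 higher (61.9%), and -0.09 beside 0.03, with 4 of 10 (52.8%). At 14 months the fit with that block sets the 6 BD 14 rats against CD 14 rats 4 and 5 alone. Without the block, leaving out 1 array moved the diet medians to between 0.08 and 0.57 at 3 months and between 0.0055 and 0.21 at 14 months. Slide B alone held both groups of 3 months, and its only CD 3 array, that of rat 1, had the lowest median log2 ratio of all arrays (-0.24), the most non-uniform spots (4.44%) and an array weight of 0.27. The array of CD 3 rat 4, on slide D, had the lowest weight (0.18), the lowest share of spots well above background (52.4%), the lowest median Cy5 signal (21.8) and a mean log2 ratio of the hepatocyte markers of -1.83, beside -0.61 to 0.49 on the other arrays. Without it the differences in CD 14 against CD 3 were 0.75 for Fabp1, 2.39 for Cd36, 1.18 for Acsl3 and 0.63 for Acsl5. The time medians kept their sign in every limma fit, also with each array left out, between 0.60 and 1.09 with 7 or 8 genes higher on the control diet and between 0.42 and 0.77 with 8 to 10 higher on the BASE-diet, of 10 genes, or of 9 under the strict filter, which has no value for Fabp4. Over the same fits 44.5% (no filter) to 60.9% (slide as a block) of all probes were higher on the control diet. On the BASE-diet it was 49.7% (no filter) to 59.3% (without BD 3 rat 3). Without the block, the genes found at an unadjusted p were all higher in the first-named group. They were 1 of 10 in BD 3 against CD 3 (4.99% of all probes) and 0 of 10 in BD 14 against CD 14 (3.79%). In CD 14 against CD 3 they were 4 of 10, Fabp1, Cd36, Acsl3 and Acsl5 (6.85%). In BD 14 against BD 3 they were 3 of 10, Fabp4, Cd36 and Acsl5 (4.76%). These calls, counted here in either direction, changed with slide as a block, where CD 3 rests on rats 1 and 5. CD 14 against CD 3 then had 2, Fabp2 and Acsl3 (6.01% of all probes), and BD 14 against BD 3 had 0 (4.64%). BD 3 against CD 3 had 1, Acsl3 in place of Fabp1 (2147 of 19434 probes), and BD 14 against CD 14 had 0 (7.80%).

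**Figure D1:**
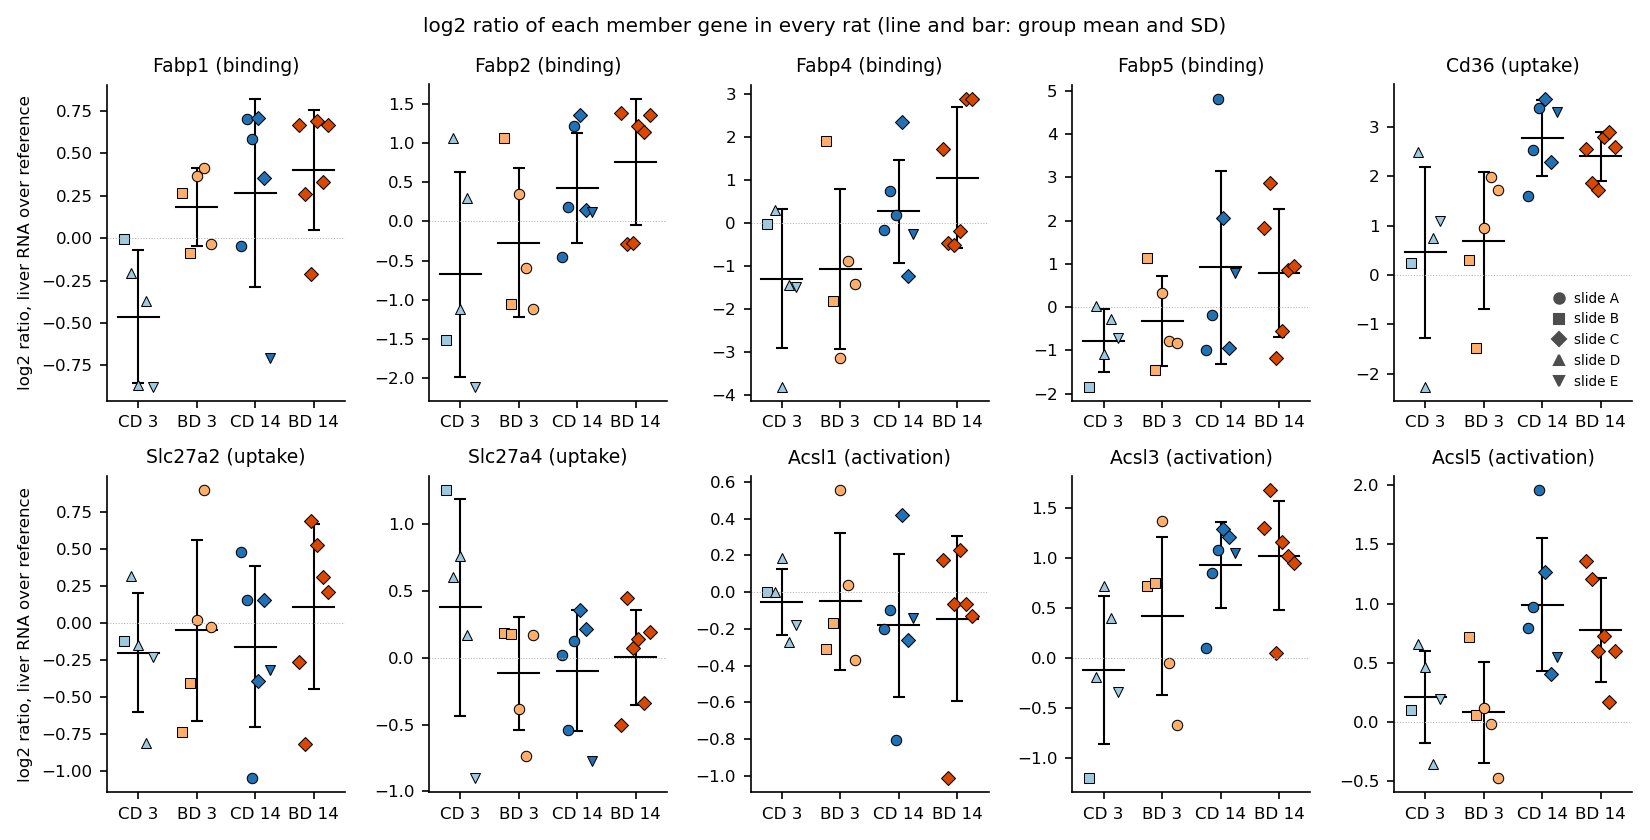
Log2 ratio of liver RNA to the common reference (vertical axis) for the main probe of each gene in every rat, by group (horizontal axis), with symbols for the slide and a line and bar for the group mean and SD. The groups overlap in every panel, and for Cd36 the 14-month rats lie between 1.59 and 3.57.

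Fabp1 encodes the liver fatty acid binding protein. Its log2 ratios in CD 3 were -0.0034, -0.20, -0.87, -0.37 and -0.88, and in BD 3 they were 0.27, -0.09, 0.37, 0.41 and -0.04. After 14 months they ran from -0.71 through a median of 0.47 to 0.71 in CD 14, and from -0.21 through 0.50 to 0.69 in BD 14. All 5 BD 3 rats were above the CD 3 mean of -0.46, and 3 of them above every CD 3 rat, while the BD 3 and BD 14 groups overlapped CD 14.

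The log2 difference of Fabp1 was 0.65 in BD 3 against CD 3 (SE 0.26, adjusted p 0.600, higher in 5 of 5 rats than the CD 3 mean) and 0.73 in CD 14 against CD 3 (SE 0.25, adjusted p 0.314, higher in 5 of 6). It was 0.13 in BD 14 against CD 14 and 0.22 in BD 14 against BD 3. Both of the larger differences rest on the CD 3 group. They were smaller with slide as a block, where CD 3 is given by rats 1 and 5 alone. With slide as a block they were 0.06 (SE 0.33, adjusted p 0.969) and 0.21 (SE 0.34, adjusted p 0.918). Within slide B, the mean of the 2 BD 3 rats was 0.09 above the CD 3 rat, with rat 1 above it (0.27) and rat 2 below it (-0.09). Within slide E the CD 14 rat exceeded the CD 3 rat by 0.17. Without CD 3 rat 3, no gene reached an unadjusted p under 0.05 in BD 3 against CD 3.

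The reference channel of Fabp1 differed between arrays, within slides as well as between them. The Cy3 signal of Fabp1 comes from 1 pooled RNA, yet it ran from 84991.9 to 302241 over the arrays, and its medians were 195437 on slide D and 186021 on slide E, which hold 4 of the 5 CD 3 rats, 169462 on slide B and 147566 on slide A, which hold all BD 3 rats, and 115242 on slide C. Within slides it ran from 99759.7 to 200390 on A, from 84991.9 to 191969 on B and from 86465.1 to 142779 on C. It ran from 163254 to 302241 on D and from 173523 to 198520 on E. The lowest Cy3 signal of all was that of CD 3 rat 1, on slide B. The Cy5 signal had medians of 108205 (CD 3), 184366 (BD 3), 147586 (CD 14) and 149112 (BD 14). Taking the Cy5 channel alone, quantile normalized between arrays, the Fabp1 difference was 0.25 in BD 3 against CD 3 and 0.21 in CD 14 against CD 3. Fabp1 ranked between 10 and 69 of 19434 probes there, and arrays of equal rank are given the same value, as 5 of 22 were at 17.45, so these sizes cannot be set against those of the ratios. The part of the reference channel and of the slide in the Fabp1 result was not tested.

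**Figure D2:**
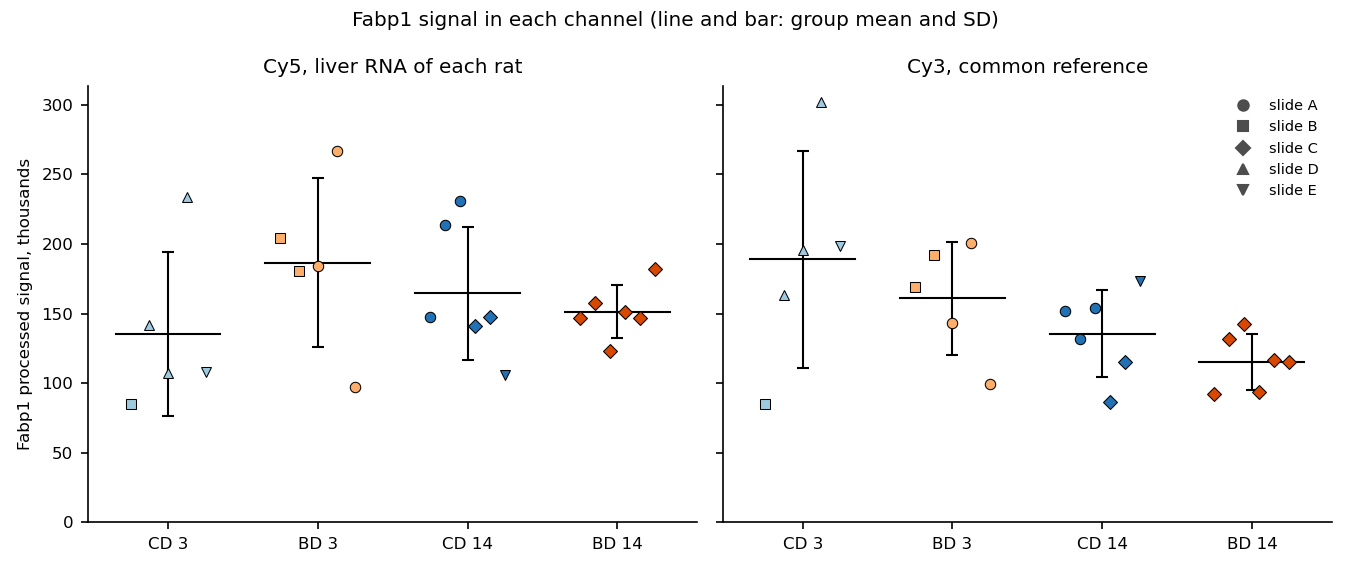
Processed Fabp1 signal (vertical axis), in the Cy5 channel of the rats and the Cy3 channel of the common reference, by group (horizontal axis), with symbols for the slide and a line and bar for the group mean and SD. The Cy3 signal of the same reference RNA spans 84991.9 to 302241.

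The reference also varied for probes other than those of the members. Over the 12402 probes well above background in both channels on every array, the median SD between arrays was 0.42 for log2 Cy3 and 0.54 for log2 Cy5. For Fabp1 the SD was 0.47 for log2 Cy3 and 0.44 for log2 Cy5. Cy3 signals correlated with a median r of 0.983 between the 50 pairs of arrays on 1 slide and 0.967 between the 181 pairs on different slides. For the members with Cy3 well above background on all arrays, the Cy3 signal varied between 2.51-fold for Acsl5 and 4.10-fold for Fabp2.

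Fabp2, the intestinal form, had Cy5 values of 112 to 1306, with a median of 574. Its log2 ratios ran from -2.11 through a median of -1.12 to 1.06 in CD 3, from -1.12 through -0.59 to 1.06 in BD 3, from -0.45 through 0.16 to 1.35 in CD 14 and from -0.28 through 1.18 to 1.38 in BD 14. The difference was 1.11 in CD 14 against CD 3 (SE 0.54, adjusted p 0.501) and 1.03 in BD 14 against BD 3 (SE 0.54, adjusted p 0.702). Fitted with the slide as a block these were 2.26 (SE 0.85, adjusted p 0.778), which reached an unadjusted p under 0.05, and 0.77 (SE 0.92, adjusted p 0.990), and on slide E the CD 14 rat exceeded the CD 3 rat by 2.23. All 6 CD 14 rats exceeded the CD 3 mean, but only 2 exceeded the highest CD 3 rat. Of 7 enterocyte markers, Cdx2, Vil1 and Si did not pass the filter on low signal and were well above background on 5, 7 and 5 of the 22 arrays, while Cdx1, Lct, Alpi and Cdh17 were so on all 22. In CD 14 against CD 3, 1 of these 4 was higher (median -0.18), and in BD 14 against BD 3 also 1 (median -0.06), with 0 at an unadjusted p in limma.

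Fabp4, the adipocyte form that macrophages also make, was the dimmest member, with Cy5 values of 7.23 to 612. In CD 3 its log2 ratios were -0.02, 0.29, -3.80, -1.45 and -1.50, and in BD 3 they were 1.90, -1.81, -3.14, -0.88 and -1.42. In CD 14 they ran from -1.23 through a median of 0.0079 to 2.34, and in BD 14 from -0.51 through 0.76 to 2.88. The rats of 1 group thus spread over more than the difference between groups, and each pair of neighbouring groups overlapped.

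The Fabp4 difference was 2.12 in BD 14 against BD 3 (SE 0.88, adjusted p 0.602) and 1.57 in CD 14 against CD 3 (SE 0.88, adjusted p 0.576). In CD 3 the Cy5 signals of 3 of 5 rats, 7.23, 10.1 and 12.6, were not well above background, and the Cy3 signals of CD 14 rat 4 and of BD 14 rats 1 and 5, with log2 ratios of 2.34, 1.71 and 2.88, were not either, so neither difference has a measured size. The sizes also differed between alternatives. With normexp background correction and loess the differences were 0.99 and 0.32, with the Cy5 channel alone 2.37 and 1.11, and with slide as a block 2.42 and 1.67. The adjusted p of 0.0733 for BD 14 against BD 3 in Cy5 alone was the lowest for any of the 10 genes under any alternative tried, and over its alternatives it ranged up to 0.990.

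Fabp5, the epidermal form, had log2 ratios of -1.83, 0.04, -1.08, -0.27 and -0.71 in CD 3 and of 1.14, -1.46, 0.32, -0.79 and -0.83 in BD 3. In CD 14 it ran from -0.99 through a median of 0.30 to 4.82, and in BD 14 from -1.17 through 0.90 to 2.87. CD 14 rat 3 alone carried a Cy5 signal of 31221.8, beside a median of 1366 over all arrays, and BD 14 rat 2 had 13573.6. The difference of 1.70 in CD 14 against CD 3 (SE 0.86, adjusted p 0.517) was higher in 4 of 6 rats, and without CD 14 rat 3 it was 0.92 (adjusted p 0.790; over all its alternatives 0.360 to 0.854). The slide as a block gave 2.37 (SE 1.59, adjusted p 0.847), and on slide E the CD 14 rat exceeded the CD 3 rat by 1.498.

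Cd36 encodes a membrane receptor and transporter that binds long-chain fatty acids and oxidized lipoproteins. On its main probe the log2 ratios were 0.24, 2.49, -2.26, 0.75 and 1.09 in CD 3 and 0.30, -1.48, 0.96, 1.98 and 1.72 in BD 3. They ran from 1.59 through a median of 2.92 to 3.57 in CD 14 and from 1.71 through 2.58 to 2.89 in BD 14. The 3-month rats spread over more than 4 log2 units and the 14-month rats over less than 2, and 4 of 5 CD 3 rats and 3 of 5 BD 3 rats lay below every 14-month rat of their diet.

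The Cd36 difference was 2.32 in CD 14 against CD 3 (SE 0.65, adjusted p 0.222, higher in 6 of 6 rats than the CD 3 mean) and 1.71 in BD 14 against BD 3 (SE 0.65, adjusted p 0.559, higher in 6 of 6). In size the first exceeded 99.9% of the differences of all probes in that comparison and the second 99.6%. The diets differed by 0.23 at 3 months (SE 0.68, adjusted p 0.968) and by -0.38 at 14 months (SE 0.62, adjusted p 0.960). CD 14 had the highest mean, 2.78, followed by BD 14 with 2.40, BD 3 with 0.70 and CD 3 with 0.46, and neighbours in that order overlapped.

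The other Cd36 probe gave 1.94 in CD 14 against CD 3 (SE 0.63, adjusted p 0.289) and 1.77 in BD 14 against BD 3 (SE 0.63, adjusted p 0.502). The pair of probes had r 0.96 over the 22 arrays, and on the array where they differed most they were 1.44 apart. They bind the same transcript at different places and share each array's RNA, so they are no replicates of the rats. Both are shown because the largest difference among the members, that of CD 14 against CD 3, rests on the main probe and the other reads the same transcript. Their 60 bases are given 5′ to 3′, and the file places them on chromosome 4 of the build rn4, at chr4:13525426-13525485 for the main probe and chr4:13522273-13522332 for the other, both on the plus strand.
Cd36 main probe: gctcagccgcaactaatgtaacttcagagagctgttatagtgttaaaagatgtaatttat
Cd36 other probe: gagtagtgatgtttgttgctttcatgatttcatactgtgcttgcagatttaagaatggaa

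With slide as a block the main probe gave 1.21 in CD 14 against CD 3 (SE 1.08, adjusted p 0.860) and 0.76 in BD 14 against BD 3 (SE 1.17, adjusted p 0.990), and the other probe gave 1.33 and 0.45. On slide E alone, the CD 14 rat was at 3.30 and the CD 3 rat at 1.09, 2.22 apart on the main probe, beside 2.32 over all arrays, and 1.51 on the other, with 1 rat of each group. The Cy3 signal of the main probe lay between 552 and 2163, 3.92-fold, while its Cy5 signal lay between 452 and 15461.5, 34.2-fold. In Cy5 alone the differences were 2.26 and 1.86. Leaving out 1 array moved the ratio differences of the main probe to between 1.64 and 2.82 in CD 14 against CD 3. In BD 14 against BD 3 they moved to between 1.16 and 2.03, and without BD 3 rat 2 Cd36 reached no unadjusted p under 0.05 in limma. The part of the slide in the Cd36 result was not tested.

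**Figure D3:**
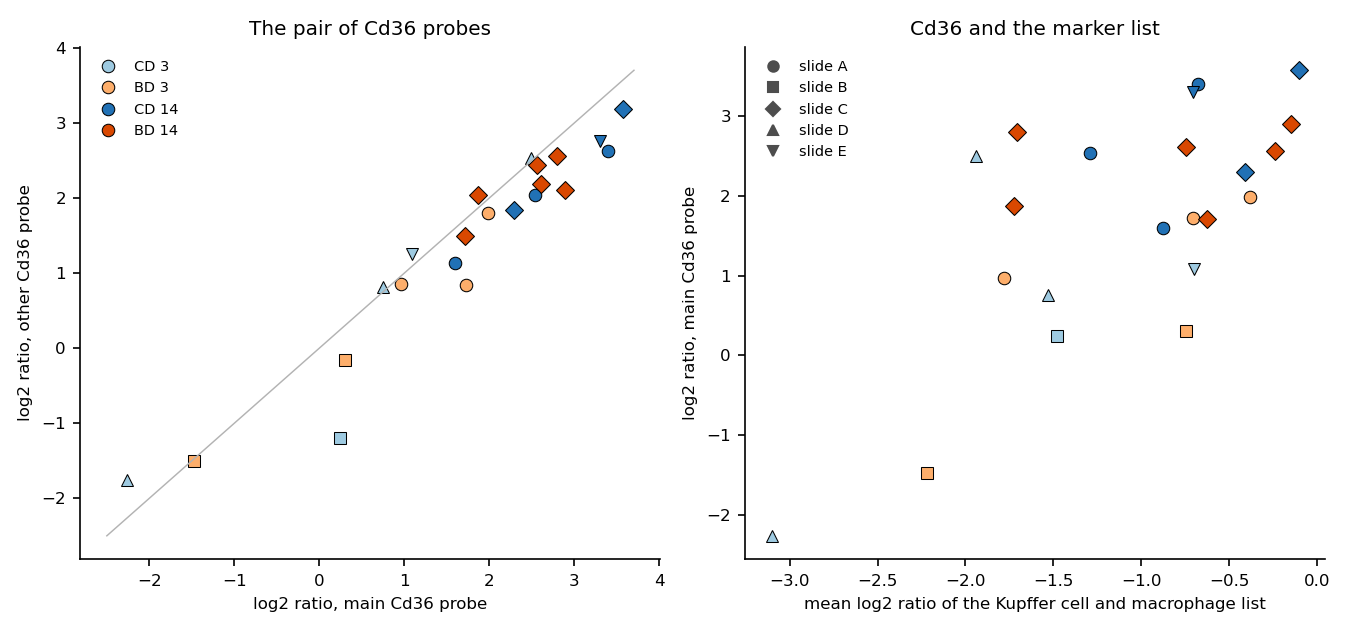
On the left, log2 ratios of the main Cd36 probe (horizontal axis) and the other probe (vertical axis) in each rat, with a line where they are equal, and on the right the main probe (vertical axis) against the mean log2 ratio of 7 Kupffer cell and macrophage markers (horizontal axis). Colours give the group and symbols the slide, and 2 arrays of 3 months have the lowest values in both panels.

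Macrophages, endothelial cells and adipocytes make Cd36 as well, and in bulk RNA fewer cells of a type and less RNA per cell cannot be told apart. Of the Kupffer cell and macrophage list, 7 genes were on the array and tested, and 7 of 7 were higher in CD 14 than in CD 3, with a median difference of 1.19, 5 at an unadjusted p and 0 at an adjusted p under 0.05 with limma. In BD 14 against BD 3, 7 of 7 were higher with a median of 0.24, and 0 reached an unadjusted p. By diet, 7 of 7 were higher in BD 3 (median 0.67) and 1 of 7 in BD 14 (median -0.25), 0 at an unadjusted p. The summed Cy5 signal of the list had medians of 3759 (CD 3), 8143 (BD 3), 13296.0 (CD 14) and 7179 (BD 14). The probe with the highest signal of these, that of Clec4f, lay between 1829 and 31650.5, and none of the 7 was below background on all arrays.

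The mean log2 ratio of that list was -1.48, -1.94, -3.10, -1.53 and -0.70 in CD 3 and -0.74, -2.22, -1.78, -0.38 and -0.71 in BD 3. It ran from -1.29 through -0.69 to -0.10 in CD 14 and from -1.72 through -0.69 to -0.15 in BD 14. The r between it and Cd36 was 0.69 over 22 arrays (Spearman's rho 0.56), 0.68 over the 10 arrays of 3 months and 0.34 over the 12 of 14 months. Without the 2 arrays farthest from the list's median it was 0.36 (rho 0.41). The points share the reference and, in part, the slide, and the part of these cells in the Cd36 result was not tested.

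Over the 22 arrays, the r of Fabp4 was 0.63 with the mean of the Kupffer cell and macrophage list, 0.58 with the stellate cell list, 0.28 with the adipocyte list and 0.18 with the endothelial list. These values include the arrays where the Cy5 or Cy3 signal of Fabp4 was not well above background. The r of Cd36 was 0.44 with the endothelial list, 0.40 with the adipocyte list and 0.22 with the stellate cell list. The r largest in size between any member and any list was -0.70, for Slc27a4 and the endothelial list. Slc27a4 had -0.46 with the Kupffer cell and macrophage list, and Acsl5 had 0.55 with the hepatocyte list. With the enterocyte list r ran from -0.58 for Fabp2 to 0.39 for Acsl1, with -0.56 for Fabp1 and -0.57 for Fabp5. Of 6 endothelial markers tested, 4 were higher for CD 14 against CD 3 (median 0.29, 1 at an unadjusted p), 3 for BD 14 against BD 3 (median -0.06, 0 at an unadjusted p), and 0 passed an adjusted p under 0.05 with limma. The summed endothelial signal had medians of 7815 (CD 3), 5023 (BD 3), 10402.5 (CD 14) and 7402 (BD 14), with the highest signal from the probe of Kdr. Of 7 adipocyte markers 4 were tested, and 3 of these were higher in each time comparison (medians 0.46 and 0.32, with 2 and 1 at an unadjusted p and 0 adjusted with limma). Their summed signal had medians of 2726 (CD 3), 3408 (BD 3), 4669 (CD 14) and 4648 (BD 14), the probe of Cfd had the highest signal, and Adipoq, Plin1 and Lep were well above background on 5, 2 and 7 arrays. The part of any of these cells in the results for Cd36, Fabp4 or the other members was not tested.

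The remaining lists bear on what else the tissue held when the members were measured. Of the hepatocyte markers 8 of 10 were higher in CD 14 against CD 3 (median 0.26) and 7 of 10 in BD 14 against BD 3 (median 0.09). In both comparisons 0 of them reached an unadjusted p. In CD 14 against CD 3, 3 of 4 lymphocyte markers were higher (median 0.51, 1 at an unadjusted p), 4 of 6 stellate cell markers (median 0.08, 0), 4 of 4 red cell markers (median 0.42, 0) and 0 of 2 pancreas markers (median -0.94, 0). In BD 14 against BD 3 the counts were 3 of 4 (median 0.40), 3 of 6 (median -0.06), 4 of 4 (median 0.71) and 1 of 2 (median -0.0011), each with 0 at an unadjusted p. None of these markers passed an adjusted p in limma, and the r of Cd36 with the mean of the lymphocyte list was 0.54 over 22 arrays. In BD 3 against CD 3, where Fabp1 was the gene found at an unadjusted p, 0 of 4 red cell markers (median -0.61, 1 at an unadjusted p), 6 of 6 endothelial markers (median 0.22), 5 of 6 stellate cell markers (median 0.23, 1), 4 of 4 adipocyte markers (median 0.37), 7 of 10 hepatocyte markers (median 0.20), 2 of 4 lymphocyte markers (median -0.10), 1 of 4 enterocyte markers (median -0.06) and 0 of 2 pancreas markers (median -0.92) were higher, with 0 at an unadjusted p where none is given and 0 adjusted in limma. The part of these cells in the Fabp1 result was not tested.

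Slc27a2 encodes the very long-chain acyl-CoA synthetase that doubles as a fatty acid transporter of hepatocytes. Its log2 ratios lay between -0.81 and 0.32 in CD 3, -0.73 and 0.89 in BD 3, -1.05 and 0.48 in CD 14 and -0.81 and 0.69 in BD 14. Its largest difference was 0.27, in BD 14 against CD 14 (SE 0.30, adjusted p 0.952), and every neighbouring pair of groups overlapped. The largest in size with slide as a block was -0.47, in CD 14 against CD 3 (SE 0.55, adjusted p 0.891).

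Slc27a4, a transporter of the same family, had Cy5 values of 35.0 to 431. Its values were 1.25, 0.61, 0.76, 0.17 and -0.90 in CD 3 and 0.19, 0.17, -0.39, -0.73 and 0.17 in BD 3, and they ran from -0.78 through a median of 0.07 to 0.36 in CD 14 and from -0.50 through 0.11 to 0.44 in BD 14. It was the only one of the 10 genes with its highest mean in CD 3, 0.38, and its differences were -0.50 in BD 3 against CD 3 (SE 0.33, adjusted p 0.818) and -0.48 in CD 14 against CD 3 (SE 0.31, adjusted p 0.646). Leaving out 1 array moved the first between -0.82 and -0.28 and the second between -0.80 and -0.26, slide as a block gave -0.71 and -0.36, and within slide B the first was -1.07 and within slide E the second was 0.12. In Cy5 alone, BD 14 was below CD 14 by -0.76, and with slide as a block by -0.28, where the ratios gave 0.10, so its direction at 14 months differed between alternatives. The reference's Cy3 signal was lower in BD 14 too, with medians of 57.5 (BD 14) and 146.3 (CD 14), beside Cy5 medians of 53.6 and 109.7. Its Cy3 medians were 62.7 on slide C and 134.7 on slide A. The part of the slide in this was not tested.

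Acsl1 encodes the long-chain acyl-CoA synthetase most abundant in liver. Its log2 ratios spanned -0.27 to 0.19 in CD 3, -0.37 to 0.55 in BD 3, -0.81 to 0.42 in CD 14 and -1.01 to 0.23 in BD 14. The group means lay between -0.18 and -0.05, and its largest difference was -0.13, in CD 14 against CD 3 (SE 0.23, adjusted p 0.907). Slide as a block made it -0.31 (SE 0.41, adjusted p 0.901) there and -0.55 in BD 14 against BD 3 (SE 0.44, adjusted p 0.990), where the fit without it gave -0.09. An adjusted p of this size does not show that the groups were equal.

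Acsl3 encodes a synthetase of the endoplasmic reticulum and of lipid droplets. Its log2 ratios were -1.20, -0.19, 0.72, 0.40 and -0.34 in CD 3 and 0.72, 0.74, 1.37, -0.05 and -0.67 in BD 3, and they ran from 0.10 through a median of 1.06 to 1.29 in CD 14 and from 0.05 through 1.09 to 1.67 in BD 14. Of the 6 CD 14 rats 5 were above every CD 3 rat.

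The Acsl3 difference was 1.05 in CD 14 against CD 3 (SE 0.36, adjusted p 0.323, higher in 6 of 6 rats than the CD 3 mean), 0.60 in BD 14 against BD 3 (SE 0.36, adjusted p 0.736) and 0.54 in BD 3 against CD 3 (SE 0.38, adjusted p 0.831). Leaving out 1 array moved these to between 0.78 and 1.26, 0.33 and 0.84, and 0.27 and 0.81. With slide as a block the 3 were 1.86, 0.07 and 1.57 (adjusted p 0.739, 0.995 and 0.349). On slide E the CD 14 rat exceeded the CD 3 rat by 1.38, and on slide B the BD 3 rats exceeded the CD 3 rat by 1.93. In Cy5 alone, in the order above, they were 0.55, 1.35 and 0.0035, so which time difference was larger depended on the alternative, and the difference by diet was near 0 there. The Cy5 signal lay between 34.6 and 518.

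Acsl5 encodes a synthetase of mitochondria and endoplasmic reticulum. Its log2 ratios were 0.10, 0.66, 0.47, -0.36 and 0.20 in CD 3 and 0.71, 0.06, 0.12, -0.01 and -0.47 in BD 3, and they ran from 0.41 through a median of 0.88 to 1.96 in CD 14 and from 0.17 through 0.66 to 1.36 in BD 14. Of the CD 14 rats 4 of 6 were above every CD 3 rat, and 3 of 6 BD 14 rats were above every BD 3 rat.

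The Acsl5 difference was 0.78 in CD 14 against CD 3 (SE 0.28, adjusted p 0.335, higher in 6 of 6 rats) and 0.70 in BD 14 against BD 3 (SE 0.28, adjusted p 0.588, higher in 6 of 6). With slide as a block it was 0.98 (adjusted p 0.823) and 1.10 (adjusted p 0.990), and on slide E it was 0.35. In Cy5 alone it was 0.81 and 0.31. This probe was printed in 10 spots on each array, and the median SD between its spots was 0.03.

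**Figure D4:**
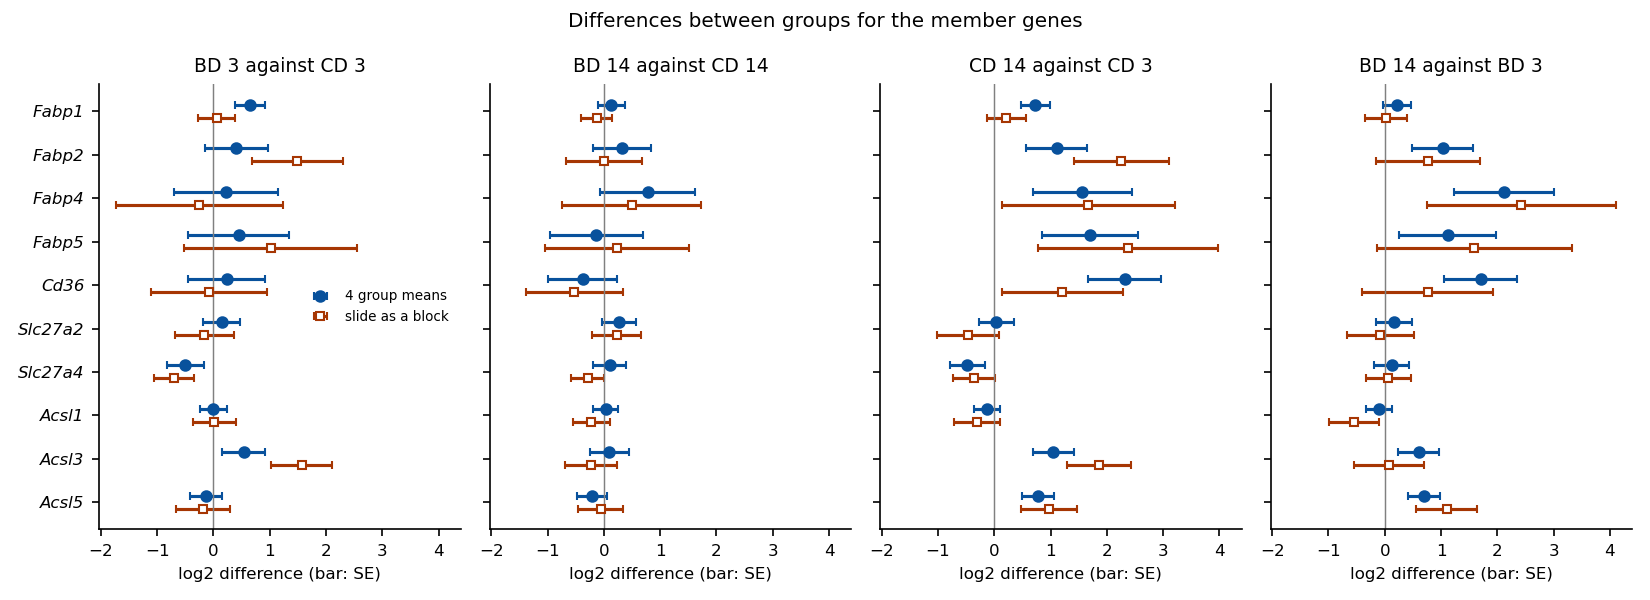
Log2 difference between groups (horizontal axis) for the main probe of each gene (vertical axis) in the 4 comparisons, with SE bars, from the fit of 4 group means (filled) and with slide as a block (open). The time differences of Cd36 are 2.32 and 1.71 without the slide and 1.21 and 0.76 with it.

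By the order of their group means, Fabp1, Fabp2, Fabp4 and Acsl3 ran from CD 3 through BD 3 and CD 14 to BD 14, and Fabp5 and Cd36 from CD 3 through BD 3 and BD 14 to CD 14. Acsl5 ran from BD 3 through CD 3 and BD 14 to CD 14, Slc27a2 from CD 3 through CD 14 and BD 3 to BD 14, and Acsl1 from CD 14 through BD 14 and CD 3 to BD 3. In each of these orders the 3 pairs of neighbours overlapped. Across the 22 arrays, which share the reference, the highest r between members was 0.75, for Fabp5 and Acsl5, and the lowest was -0.58, for Fabp5 and Slc27a2.

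For the brightest member of each role, the most alike genes were sought among the members and the 3 lists below, 58 genes with values on all 22 arrays, as a description. Fabp1 was most like Dbi (r 0.68), Fabp2 (r 0.66) and Fabp4 (r 0.57). Slc27a2 was most like Acsl1 (r 0.48), Slc25a20 (r 0.46) and Cpt1a (r 0.43), and Acsl1 was most like Nr1h3 (r 0.65), Cpt2 (r 0.50) and Slc27a2 (r 0.48).

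Other genes of the members' families, such as further Fabp, Slc27, Acsl and Acsm genes, were 28 of 29 on the array, and 19 were tested. None passed an adjusted p under 0.05 in any of the 4 comparisons with limma (0 of 19), and an unadjusted p under 0.05 was reached by 2 in BD 3 against CD 3 (7.11% of all probes), 1 in BD 14 against CD 14 (4.60%), 2 for CD 14 against CD 3 (10.1%) and 0 for BD 14 against BD 3 (7.44%), near those shares. The fit with slide as a block gave 1, 4, 1 and 2 in the same order (beside 2147, 1516, 1168 and 902 of all 19434 probes), 0 at an adjusted p, and the median was 0.37 both in BD 14 against CD 14, beside 0.03 over all probes, and in BD 14 against BD 3, beside 0.0027. Acsl4 differed by 1.23 (SE 0.48, adjusted p 0.573) and Slc27a5 by -0.56 (SE 0.26, adjusted p 0.684) in BD 3 against CD 3. Acss3 differed by 0.62 (SE 0.26) and Acsbg1 by 0.57 (SE 0.34) in BD 14 against CD 14, both at an adjusted p of 0.952.

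The genes that use acyl-CoA or supply fatty acids were 22 of 25 names on the array, and 21 of them were tested. None passed an adjusted p in any of the 4 comparisons with limma (0 of 21). At an unadjusted p there were 3 in BD 3 against CD 3 (7.11% of all probes), 7 in BD 14 against CD 14 (4.60%), 3 for CD 14 against CD 3 (10.1%) and 1 for BD 14 against BD 3 (7.44%). Of the 21, 13 were higher in BD 3 against CD 3 (53.6% of all probes), with a median difference of 0.21 beside 0.03 over all probes. In CD 14 against CD 3 it was 9 (53.4%; median -0.05 beside 0.03), and in BD 14 against BD 3 it was 15 (58.6%; median 0.15 beside 0.07). In BD 14 against CD 14, 20 of 21 were higher (56.3% of all probes), with a median difference of 0.41 beside 0.05, and the 7 were all higher (3.79%): Cidea, Cidec, Cpt1a, Cpt2, Lpin1, Mgll and Slc25a20. With slide as a block 19 of 21 were higher there, with a median of 0.43 beside 0.03 over all probes, 4 at an unadjusted p (7.80% of all probes) and 0 at an adjusted p. That fit sets the 6 BD 14 rats against CD 14 rats 4 and 5 alone, all on slide C. In the same comparison, without the slide, 3 of 4 adipocyte markers (median 0.26, 1 at an unadjusted p; Cidea and Lipe are in both lists), 4 of 10 hepatocyte markers (median -0.01, from -0.56 for Ttr to 0.88 for Tat, 1 at an unadjusted p), 4 of 6 stellate cell markers (median 0.08), 2 of 6 endothelial markers (median -0.28), 0 of 4 red cell markers (median -0.42) and 0 of 4 lymphocyte markers (median -0.36) were higher, and their part in this was not tested. The members' median in that comparison was 0.10.

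By the rule for named genes, Cidec had log2 ratios of -1.57 to 0.11 in CD 3, 0.0087 to 1.01 in BD 3, -1.01 to -0.01 in CD 14 and -0.07 to 1.28 in BD 14. It differed by 1.05 (SE 0.31, adjusted p 0.400) at 3 months and 1.26 (SE 0.28, adjusted p 0.397) at 14 months. Cpt1a, the mitochondrial carnitine acyltransferase, differed by 1.26 (SE 0.48, adjusted p 0.540) and 1.06 (SE 0.43, adjusted p 0.952). Lpin1 differed by -0.41 at 3 months (SE 0.42, adjusted p 0.897) and by 1.20 at 14 months (SE 0.39, adjusted p 0.852), in opposite directions. Of the regulators 10 of 11 were on the array and 9 were tested, with 0 at an adjusted p in any of the 4 comparisons with limma and, at an unadjusted p, 1 in BD 14 against CD 14, Hnf4a (0.77, SE 0.29, adjusted p 0.952), which is also among the hepatocyte markers, and 0 in each of the others. None of the 9 reached an unadjusted p in any of the 4 with slide as a block. Ppara differed by 0.99 (SE 0.56, adjusted p 0.780) and Mlxipl by 0.45 (SE 0.39, adjusted p 0.871) in BD 3 against CD 3, and Mlxipl by 0.34 in BD 14 against CD 14 (SE 0.36).

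Promoters from RefSeq, build GRCr8, from 250 bases before to 50 after the start of each gene, were found for 8 of the 10 genes, and not for Fabp4 and Fabp5. A direct repeat, 2 copies of AGGNCA with 1 base between them, a pattern of the kind that nuclear receptors such as PPARalpha with RXR bind, was searched on both strands, and 139 of 33469 promoters of that length held it (0.415%). Of the members only that of Fabp1 did, where AGGCCATAGGTCA is read on the minus strand and the base of the match farthest upstream is at -77. Its inner AGGTCA, which overlaps the repeat, was in 16.2% of all promoters and in those of Fabp1 and Slc27a2. TATAAA was in 14.2% of all and in 3 of 8 members (Fabp1, Cd36 and Acsl5), and CCAAT was in 37.5% of all and in 4 of 8 (Fabp1, Fabp2, Acsl1 and Acsl3). A match is a description of letters and no measured site.

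The Fabp1 promoter is printed because it alone holds the repeat, in capitals as the plus strand reads it, and that of Cd36 because its gene has the largest time difference on the control diet. They lie at chr4:104749090-104749389 and chr4:18246332-18246631 of GRCr8, both on the plus strand.
Fabp1 promoter: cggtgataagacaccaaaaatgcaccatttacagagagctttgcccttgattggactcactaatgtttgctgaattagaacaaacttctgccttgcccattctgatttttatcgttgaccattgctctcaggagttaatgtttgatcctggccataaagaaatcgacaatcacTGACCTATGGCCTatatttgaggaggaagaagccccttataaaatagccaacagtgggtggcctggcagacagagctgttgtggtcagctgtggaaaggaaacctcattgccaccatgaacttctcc
Cd36 promoter: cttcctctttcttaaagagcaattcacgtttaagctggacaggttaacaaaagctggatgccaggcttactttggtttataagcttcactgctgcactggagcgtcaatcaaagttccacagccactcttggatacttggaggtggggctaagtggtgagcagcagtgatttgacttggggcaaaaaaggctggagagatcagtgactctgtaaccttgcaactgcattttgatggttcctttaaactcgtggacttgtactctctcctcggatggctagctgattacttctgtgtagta

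The probes of Fabp1 and Fabp4 show what the array read for the brightest and the dimmest member. That of Fabp1 lies at chr4:104413796-104413855 of rn4, on the plus strand, and that of Fabp4 is placed at chr2:93536175-93538589, a span of 2415 bases for 60 bases of probe.
Fabp1 probe: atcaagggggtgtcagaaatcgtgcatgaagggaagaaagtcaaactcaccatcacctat
Fabp4 probe: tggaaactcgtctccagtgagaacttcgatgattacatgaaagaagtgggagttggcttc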

How the data were processed

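The 22 livers gave 1 Agilent two-colour array each. The authors deposited the output of Agilent Feature Extraction (version 10.7.3.1 per the labels, 10.10.1.1 per the file headers). Its log10 values are, per the file headers, ratios of the processed signals, Cy5 over Cy3, background subtracted and dye normalized by linear Lowess within the array. The deposited intensity values are the processed and the raw mean signals of both channels, with the local background. The authors' table of entries they selected was not used here.

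The log10 ratios were turned to log2, leaving out controls and spots marked non-uniform, and averaged over the spots of a probe, without scaling between arrays. To be tested, a probe needed 0.5 or more of its spots well above background (Cy5) on all arrays of 1 or more groups, which 19434 probes met. The main probe of a gene has the highest mean log2 Cy5 signal. The test was limma 3.58.1 (R 4.3.3), lmFit and eBayes on 4 group means, with prior degrees of freedom of 3.37 and Benjamini-Hochberg adjustment over those probes, at a threshold of 0.05. Python 3.11.15 (pandas 2.3.3, numpy 2.4.6, scipy 1.17.1) made the summaries, and matplotlib 3.10.9 the pictures. The limma step was tested on simulated data.

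All members are named. Of the other lists, a gene is named when it passes the threshold, and otherwise the 2 genes of each list with the smallest p in each diet comparison. Naming the genes of 1 list at an unadjusted p under 0.05 in BD 14 against CD 14 was a choice made after seeing the data. Where an older and a newer name led to 1 probe, it was counted once. The members and lists were chosen with earlier results of these data known. Marker lists were for hepatocyte, adipocyte, endothelial cell, Kupffer cell and macrophage, enterocyte, pancreas, red cell, lymphocyte and stellate cell.

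The alternatives were normexp with an offset of 50 and loess, Cy5 alone with quantile normalization, median-centred arrays, no filter, a strict filter, non-uniform spots kept, array weights, a block for the slide, a block for the number of the rat, only the 2 groups compared, the mean of a gene's probes, the F test that the methods name, without their adjustment and with Tukey's test, and each array left out. Chosen after seeing the data was leaving out the 2 arrays with the most non-uniform spots.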

Additional observations from a re-analysis of the deposited data

Results flagged for a closer look

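Each of the 10 genes was looked at in each of the 4 groups, 40 groups in all, for a rat far from the others of its group. There was 1: BD 14 replicate 2 had an Acsl1 log2 ratio of -1.01, and the nearest of the other 5 was -0.13, a gap of 0.713 of the group's whole range. Its Cy5 signal was 60786.6, beside a group median of 94975.3, and its Cy3 signal was 122579, beside a median of 95417.8 on its slide. Chance alone sets apart about 1 in 20 such groups. Without this rat the Acsl1 difference in BD 14 against BD 3 was 0.08, beside -0.09 with it and -0.55 with slide as a block. The cause was not tested.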

How the results depend on the processing

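Besides leaving out single arrays, 13 alternatives were tried. In limma none of the 10 genes was called at an adjusted p under 0.05 under any of them, in any comparison, and the lowest adjusted p was 0.0733. Over all probes, the same fits called more than the main fit did in some cases. Cy5 alone called 262 probes in BD 3 against CD 3 (1.35%), 13 in CD 14 against CD 3 (0.0669%), 46 in BD 14 against BD 3 (0.237%) and 185 in the F test (0.952%), array weights called 99 in BD 14 against BD 3 (0.509%) and 5 in BD 14 against CD 14, and only the 2 groups compared gave 22 in BD 14 against BD 3 (0.113%). The others called at most 3 in a comparison and 7 in the F test. The F test that the methods name gave 0 genes with their adjustment. Without it, it gave 4 genes among the 4 groups (2083 of 19434 probes), and with Tukey's test 2 in CD 14 against CD 3 (3.11%). At an unadjusted p, Cy5 alone gave 0 genes in BD 3 against CD 3 (17.2% of all probes), 2 in BD 14 against CD 14 (Fabp4 and Slc27a4; 7.69%), 2 in CD 14 against CD 3 (Cd36 and Acsl5; 11.1%) and 4 in BD 14 against BD 3 (Fabp2, Fabp4, Cd36 and Acsl3; 16.3%). Slide as a block gave 1 in BD 3 against CD 3 (Acsl3 in place of Fabp1; 2147 of 19434 probes), 2 in CD 14 against CD 3 (Fabp2 and Acsl3; 6.01%) and 0 in BD 14 against BD 3 (4.64%). Array weights gave 3 in CD 14 against CD 3 (Fabp1, Fabp2 and Cd36, without Acsl3 and Acsl5; 6.24%). They gave 4 in BD 14 against BD 3 (Fabp2, Fabp4, Cd36 and Acsl5; 15.3%).

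Of 476 single-gene values, 28 turned their sign. With slide as a block these were, in BD 14 against CD 14, Fabp1 (-0.13), Fabp5 (0.23), Slc27a4 (-0.28), Acsl1 (-0.22) and Acsl3 (-0.23), in BD 3 against CD 3 Fabp4 (-0.25), Cd36 (-0.076) and Slc27a2 (-0.16), and Slc27a2 in CD 14 against CD 3 (-0.47) and BD 14 against BD 3 (-0.079). With Cy5 alone they were, in BD 3 against CD 3, Fabp2 (-0.10), Slc27a2 (-0.020), Acsl1 (-0.14) and Acsl5 (0.039), in BD 14 against CD 14 Fabp5 (0.014) and Slc27a4 (-0.76), Slc27a2 in CD 14 against CD 3 (-0.15) and Slc27a4 in BD 14 against BD 3 (-0.74). With normexp and loess they were Fabp4 (-0.11) and Acsl1 (-0.050) in BD 3 against CD 3, Acsl1 in BD 14 against CD 14 (-0.00061) and Slc27a2 in CD 14 against CD 3 (-0.012). Median-centred arrays turned Acsl1 at 3 months (-0.039) and 14 months (-0.026) by diet, array weights turned Acsl1 in BD 3 against CD 3 (-0.032) and BD 14 against BD 3 (0.053), and leaving out the 2 arrays with the most non-uniform spots turned Slc27a2 in CD 14 against CD 3 (-0.071) and Acsl3 in BD 14 against CD 14 (-0.070). The time differences of Cd36, Fabp1, Fabp2, Fabp4, Fabp5, Acsl3 and Acsl5 kept their sign throughout. Fabp4 has no value under the strict filter, since its signal over background was too low on 3 arrays.

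Leaving out each array in turn gave 0 of the 10 genes at an adjusted p in every case. Over all probes, the fit without CD 3 replicate 5 called 205 in CD 14 against CD 3 (183 higher), 93 in BD 3 against CD 3 and 140 in the F test, where the main fit called 0, 0 and 5, and the other single arrays gave at most 5 in a comparison and 12 in the F test. At an unadjusted p, BD 3 against CD 3 gave 0 without CD 3 replicate 3 and 2 without BD 3 replicate 5 (Fabp1 and Acsl3). The share of all probes there was 5.06 to 12.7% over the arrays left out. CD 14 against CD 3 gave 4 to 6 (8.01 to 14.2%). BD 14 against BD 3 gave 1 without BD 3 replicate 2, Acsl5, and neither Fabp4 nor Cd36. It gave 5 without BD 14 replicate 3 (5.79 to 9.47% over the arrays left out). Differences whose sign turned ran, in BD 3 against CD 3, from -0.52 to 0.74 for Fabp4, -0.45 to 0.78 for Cd36, -0.086 to 0.32 for Slc27a2, -0.15 to 0.082 for Acsl1 and -0.29 to 0.0071 for Acsl5. In BD 14 against CD 14 they ran from -0.060 to 0.26 for Fabp1, -0.54 to 0.65 for Fabp5, -0.034 to 0.20 for Slc27a4, -0.088 to 0.21 for Acsl1 and -0.070 to 0.29 for Acsl3. In CD 14 against CD 3 Slc27a2 ran from -0.11 to 0.22, and in BD 14 against BD 3 Slc27a2 ran from -0.010 to 0.40, Slc27a4 from -0.034 to 0.22 and Acsl1 from -0.17 to 0.079. Of those that kept their sign, leaving out 1 array moved the size by more than 1.5 times for these. In BD 3 against CD 3 they were Fabp2 (0.048 to 0.84), Fabp5 (0.084 to 0.73), Slc27a4 (-0.82 to -0.28) and Acsl3 (0.27 to 0.81), and in BD 14 against CD 14 Fabp2 (0.15 to 0.54), Fabp4 (0.42 to 1.19), Cd36 (-0.61 to -0.22), Slc27a2 (0.094 to 0.46) and Acsl5 (-0.33 to -0.019). In CD 14 against CD 3 they were Fabp4 (0.94 to 1.96), Fabp5 (0.92 to 2.08), Slc27a4 (-0.80 to -0.26) and Acsl1 (-0.25 to -0.0035), and in BD 14 against BD 3 Fabp1 (0.15 to 0.34), Fabp5 (0.70 to 1.51) and Acsl3 (0.33 to 0.84).

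With the replicate block, the rat's number as a fixed term, 0 genes were called, and Cd36 differed by 2.24 in CD 14 against CD 3 (adjusted p 0.333; over all its alternatives 0.0971 to 0.860) and 1.63 in BD 14 against BD 3. The numbers are only names: the 31 pairs of arrays of the same number in different groups had a median r of -0.02 (-0.26 to 0.29), the 150 pairs of different numbers also -0.02, and 5 of 22 arrays correlated best with one of their own number. The cause of the differences between alternatives was not tested.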
